A study of Mus musculus with 3 samples.

Results

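The transport genes described here are 10 genes of the motor machinery that moves cargo along microtubules: Kif5b and Klc1 of kinesin-1, Dync1h1 of cytoplasmic dynein, the dynein adaptor Bicd2, and Dctn1 to Dctn6 of dynactin. All probe sets annotated with 1 of these symbols were taken, which gave 25 of the 20380 probe sets with a single gene symbol, or 10 of 12393 genes. The genes were chosen by earlier ratios of these same arrays, among them the low DGKzeta ratios of Kif5b and Bicd2 and the high one of Dctn6, so the values below are descriptions. RNA came from C2C12 cells, a mouse myoblast line. One group was left untreated, another was transfected with EGFP, a fluorescent protein that serves as the transfection control, and the last with DGKzeta, diacylglycerol kinase zeta, a lipid kinase that turns the second messenger diacylglycerol into phosphatidic acid. Every culture is labelled 12 h. Transfection, by the FuGene method, followed 18 h of culture. With 1 array in each group there were no replicates, and differences are given as sizes without p-values or a check between cultures. Which vectors and promoters were used, and how many cells took them up, is not stated in the labels.

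Kinesin-1 walks towards the plus ends of microtubules, mostly outward from the cell centre, as a pair of heavy chains that carry the motor and a pair of light chains that bind cargo. Cytoplasmic dynein walks the opposite way, towards minus ends near the centrosome and nucleus. Dynein becomes processive when it is joined to dynactin, a large complex built on a short actin-like filament, through an adaptor such as BICD2. In muscle cells these motors place nuclei, mitochondria and Golgi elements.

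Signals are MAS5 intensities on a linear scale. A value was counted as measured from a signal of 107 upward, the median of all values pooled, and lower values were set to this floor before ratios were formed. Where 1 of both signals lay under the floor the fold is a lower limit, written "at least". Median signals over all probe sets were 111 in untreated, 119 in EGFP and 92.5 in DGKzeta cells. The transfected gene was highest in the culture labelled with it: the brightest Dgkz probe set (1452169_a_at) read 1500.1 in untreated, 1053 in EGFP and 13466 in DGKzeta cells. Of 8 myoblast markers 7 reached the floor in untreated and 6 in each transfected culture, with Myod1 under it on every array at 35.1, 26.5 and 23.7. Of 13 myotube markers, Acta1 alone reached the floor, in untreated and EGFP cells, and Myog did not. Of the markers of other cell types, Pparg of 3 adipocyte markers reached it on every array and Csf1r of 4 macrophage markers in untreated cells, but no endothelial or epithelial marker did. The measurement error of a single probe set, from the 2 brightest probe sets of 2251 genes, was an SD of 0.40 on the log2 scale for DGKzeta against EGFP, 0.50 for DGKzeta against untreated and 0.27 for EGFP against untreated. It covers different probes on the same RNA and not the spread between cultures. The ratio of the 3' to the 5' beta-actin control set was 2.55 on the DGKzeta array, 1.43 on the EGFP array and 1.27 on the untreated array, and that of Gapdh was 0.931, 0.902 and 0.841. For the transferrin receptor it was 5.66, 4.80 and 3.92, with the 5' set under the floor on every array (30.8, 53.1 and 106). The part of this measure in the ratios below was not tested.

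Among the transport genes the lowest ratios in DGKzeta cells were those of Kif5b, Bicd2 and Klc1 probe sets, and the highest that of a Dctn6 probe set. Against EGFP, 4 of the 23 probe sets measured on at least 1 of both arrays were at least 2-fold lower, where 4.28% of all 10866 named probe sets were. They belong to 3 genes: 1 set of Kif5b, 1 of Klc1 and 2 of Bicd2. The same 4 sets were also at least 2-fold below untreated cells, where 2.60% of all named probe sets were below both other arrays. A single set, of Dctn6, was at least 2-fold above EGFP, where 0.497% of all were, and it was also the only member set at least 2-fold above both controls, as 0.407% of all were. The median log2 ratio of the members against EGFP was -0.23, with 6 above 0 and 17 below (3 of the latter being bounds), beside -0.05 over all named probe sets. These signs rest on the scaling of the arrays. With array medians equalised over the named sets, which moves the median of all ratios to 0.30, 11 members were above 0 and 12 below, and the split at 2-fold was 2 higher and 4 lower, beside 3.01% and 1.59% of all named probe sets.

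**Figure D1:**
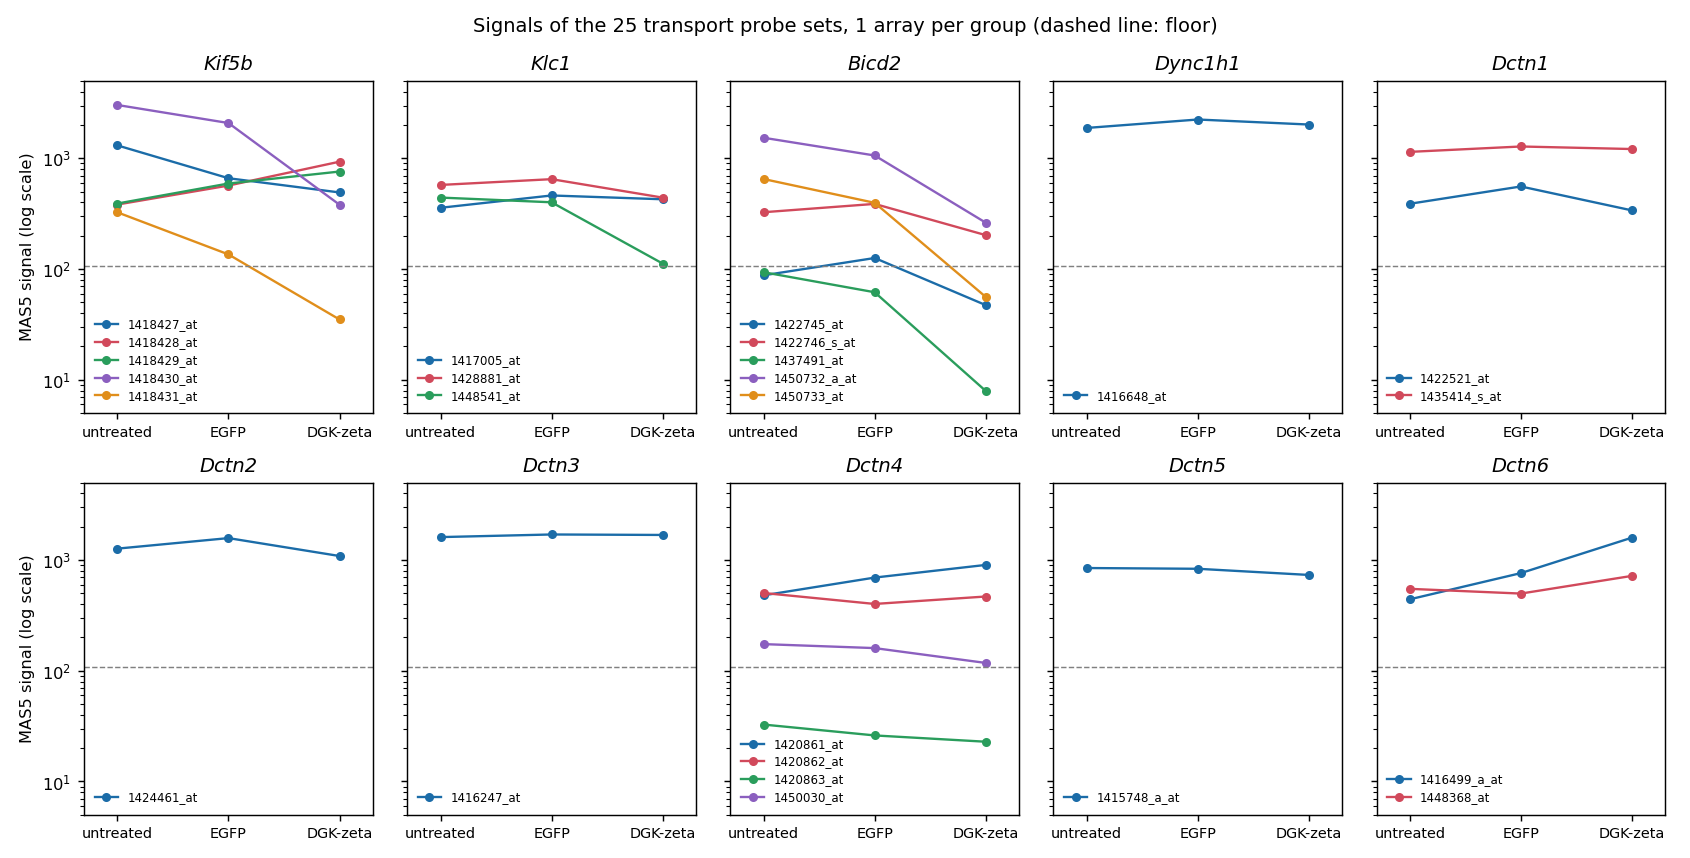
MAS5 signal (log scale) of each of the 25 probe sets on the untreated, EGFP and DGKzeta arrays, 1 panel per gene and 1 line per probe set, with the floor of 107 dashed. Lines of Kif5b cross, from 3038 to 382 in set 1418430_at and from 383 to 934 in set 1418428_at, while the Dync1h1, Dctn3 and Dctn5 lines are nearly flat.

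Kif5b, the kinesin-1 heavy chain made in most tissues, gave the widest disagreement of all members. Its set 1418430_at read 3038 in untreated, 2087 in EGFP and 382 in DGKzeta cells, which is 5.47-fold below EGFP and 7.96-fold below untreated. Set 1418431_at read 326, 136 and 35.0, at least 3.04-fold below untreated in DGKzeta cells and already 2.40-fold below it in EGFP cells. Set 1418427_at read 1311, 662 and 492, log2 ratios of -0.43 to EGFP and -1.41 to untreated cells. These 3 sets were highest in untreated and lowest in DGKzeta cells. The remaining 2 sets had the opposite order. Set 1418428_at read 383, 569 and 934, a log2 ratio of 0.72 to EGFP and 1.29 to untreated. Set 1418429_at read 391, 593 and 761, log2 ratios of 0.36 to EGFP and 0.96 to untreated cells. The platform annotation ties all 5 sets to the same source sequence record. Their DGKzeta ratios kept their signs under the scalings and floors tried, wherever a ratio could be formed, though floors cannot reverse signs. With the floor at 562 no ratio could be formed for 1418431_at. The log2 ratio of 1418427_at to EGFP shrank to -0.06 with array medians equalised over the named sets. With the floor at 562 the untreated signal of 1418428_at lay under it, and its log2 ratio to untreated went from 1.29 to a bound of 0.73.

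Between EGFP and untreated cells the log2 ratios of the 5 Kif5b sets were -1.26 for 1418431_at, -0.98 for 1418427_at, -0.54 for 1418430_at, 0.57 for 1418428_at and 0.60 for 1418429_at. With the floor at 562 the values of 1418428_at and 1418429_at were 0.02 and 0.08, both bounds because the untreated signals then lay under the floor. The EGFP and DGKzeta comparisons with untreated cells share the untreated array, so like signs in both are not independent. Set 1418431_at was the only member probe set at least 2-fold apart between EGFP and untreated cells: 1 lower of 23 measured, with 0.785% of all named probe sets lower and 0.447% higher. After quantile normalization 2 member sets were lower, beside 0.955% of all. Over the 4 Kif5b sets measured on all 3 arrays the log2 ratios of DGKzeta to EGFP spanned 3.17. Among the 207 genes with 4 or more such sets the median span was 0.76, and no other gene had a span as wide. The span against untreated was 4.28, again the widest of these 207 genes, whose median was 0.92. Kif5b was among the genes chosen by low DGKzeta ratios on these arrays. Such ratios widen its spans, so both ranks are descriptions only.

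**Figure D2:**
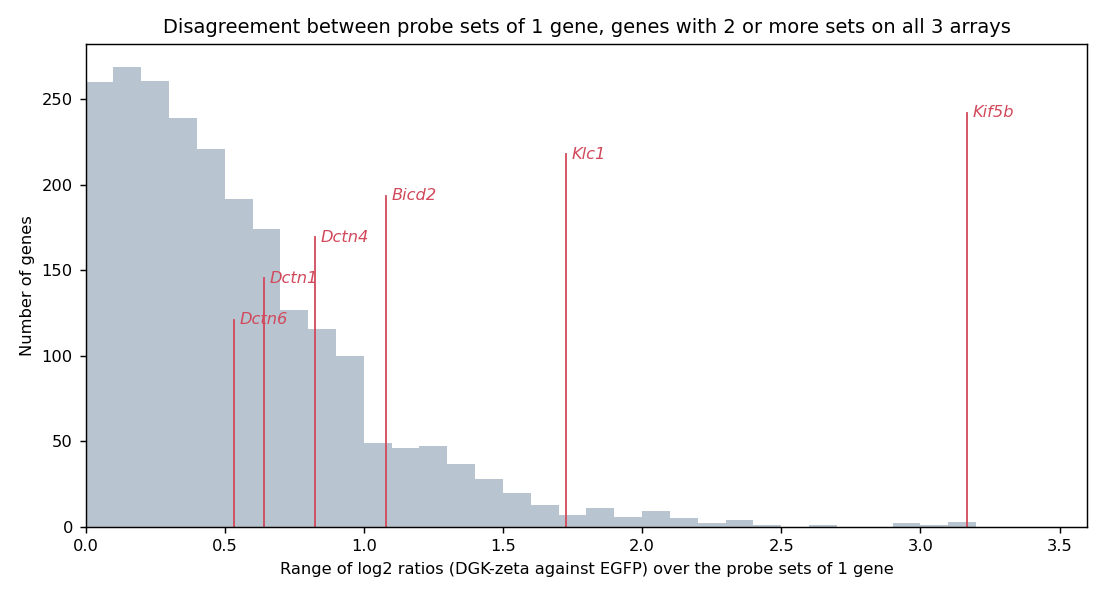
Number of genes (vertical axis) by the range of the log2 ratio of DGKzeta to EGFP over the probe sets of the same gene (horizontal axis), for 2251 genes with at least 2 probe sets measured on all 3 arrays. Red lines mark the member genes: Kif5b lies at 3.17 and Klc1 at 1.72, beyond most genes, and Dctn6 at 0.53 lies among the bulk. The ranges of Kif5b and Klc1 are over 4 and 3 sets, and genes with fewer sets are in the histogram. The median range was 0.44 over genes with at least 2 sets, 0.64 with at least 3 and 0.76 with at least 4.

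Klc1, a kinesin-1 light chain that couples the motor to cargo, had 3 probe sets, and 1 of them stood apart. Set 1448541_at read 443 in untreated, 401 in EGFP and 112 in DGKzeta cells, which is 3.58-fold below EGFP and 3.95-fold below untreated, with the DGKzeta signal just above the floor. Set 1428881_at read 576, 649 and 442, a log2 ratio of -0.55 to EGFP and -0.38 to untreated. Set 1417005_at read 358, 463 and 427, a log2 ratio of -0.11 against EGFP, which turned to 0.25 with array medians equalised over the named sets, and 0.26 against untreated. Sets 1448541_at and 1417005_at are tied to the same source record, yet the former gave a log2 ratio of -1.84 to EGFP and the latter -0.11. The Klc1 sets spanned 1.72 in the log2 ratio to EGFP, and 5.08% of the 709 genes with 3 or more such sets had a span as wide.

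Dync1h1 encodes the dynein heavy chain, the motor subunit of the minus-end machine, and has 1 probe set. It read 1885 in untreated, 2246 in EGFP and 2023 in DGKzeta cells. The log2 ratio to EGFP was -0.15 and that to untreated 0.10, both within the error of a single probe set, and the former became 0.21 with array medians equalised over the named sets.

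Bicd2, a coiled-coil adaptor that links dynein and dynactin to Golgi vesicles and to the nuclear envelope, had its lowest signal in DGKzeta cells with each of the 3 probe sets that were measured on both control arrays. Set 1450732_a_at read 1536 in untreated, 1062 in EGFP and 263 in DGKzeta cells, 4.05-fold below EGFP and 5.85-fold below untreated. Set 1450733_at read 651, 397 and 56.1, at least 3.70-fold below EGFP and at least 6.08-fold below untreated. Both sets had an EGFP signal between those of the other cultures. Set 1422746_s_at read 326, 388 and 203, log2 ratios of -0.94 to EGFP and -0.69 to untreated cells, and here EGFP cells were the highest. The other 2 sets were dim: 1422745_at read 87.9, 126 and 47.3, above the floor in EGFP cells alone, and 1437491_at read 93.7, 61.8 and 7.93, under it everywhere. Across the 4 Bicd2 sets with a ratio to EGFP the log2 values ran from -2.02 to -0.23, the latter a bound. The sign of the DGKzeta ratios held in every scaling and floor tried, wherever a ratio could be formed. This is no check of the ratios: floors cannot reverse signs, and each scaling moved every ratio by less than the SD of a single probe set. The ratio of 1422745_at to EGFP could only lie below 0. With the floor raised to 562, the DGKzeta signals of 1450733_at and 1450732_a_at lay under it, so their ratios were bounds. The log2 ratio of 1450733_at to untreated went from -2.60, already a bound, to -0.21. That of 1450732_a_at to EGFP went from -2.02 to a bound of -0.92. Both bounds at this floor fall short of 2-fold, which does not show a smaller difference. The log2 ratio of 1450732_a_at to untreated was then a bound of -1.45.

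The 250 bases before the RefSeq start of Bicd2 are shown because the 3 Bicd2 sets measured on both control arrays were lowest in DGKzeta cells, at chr13:49341299-49341548 of GRCm38.p6, plus strand. Capitals mark the letters CCAAT, the core that nuclear factor Y binds, on either strand.

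Bicd2: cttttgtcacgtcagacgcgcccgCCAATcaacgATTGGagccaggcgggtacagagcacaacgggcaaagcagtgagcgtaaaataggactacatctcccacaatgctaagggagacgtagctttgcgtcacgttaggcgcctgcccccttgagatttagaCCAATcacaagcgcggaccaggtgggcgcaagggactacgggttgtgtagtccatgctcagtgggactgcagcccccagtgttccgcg

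The stretch holds 3 CCAAT matches, and 33.8% of the 32851 RefSeq windows of this length hold at least 1. It has 1 match of CANNTG, the E-box read by myogenic factors, outside the capitals, where 66.2% of windows have at least 1. The letters GGGCGG (32.7% of windows), TATAAA (12.4%) and TGACGTCA (1.55%) were not found in it on either strand. The table had entries for 7 of the 10 members, and a CCAAT match was also found in the windows of Dctn2, Dctn3 and Dctn5, with 1 each. No binding was measured here, and a match is a description of letters.

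**Figure D3:**
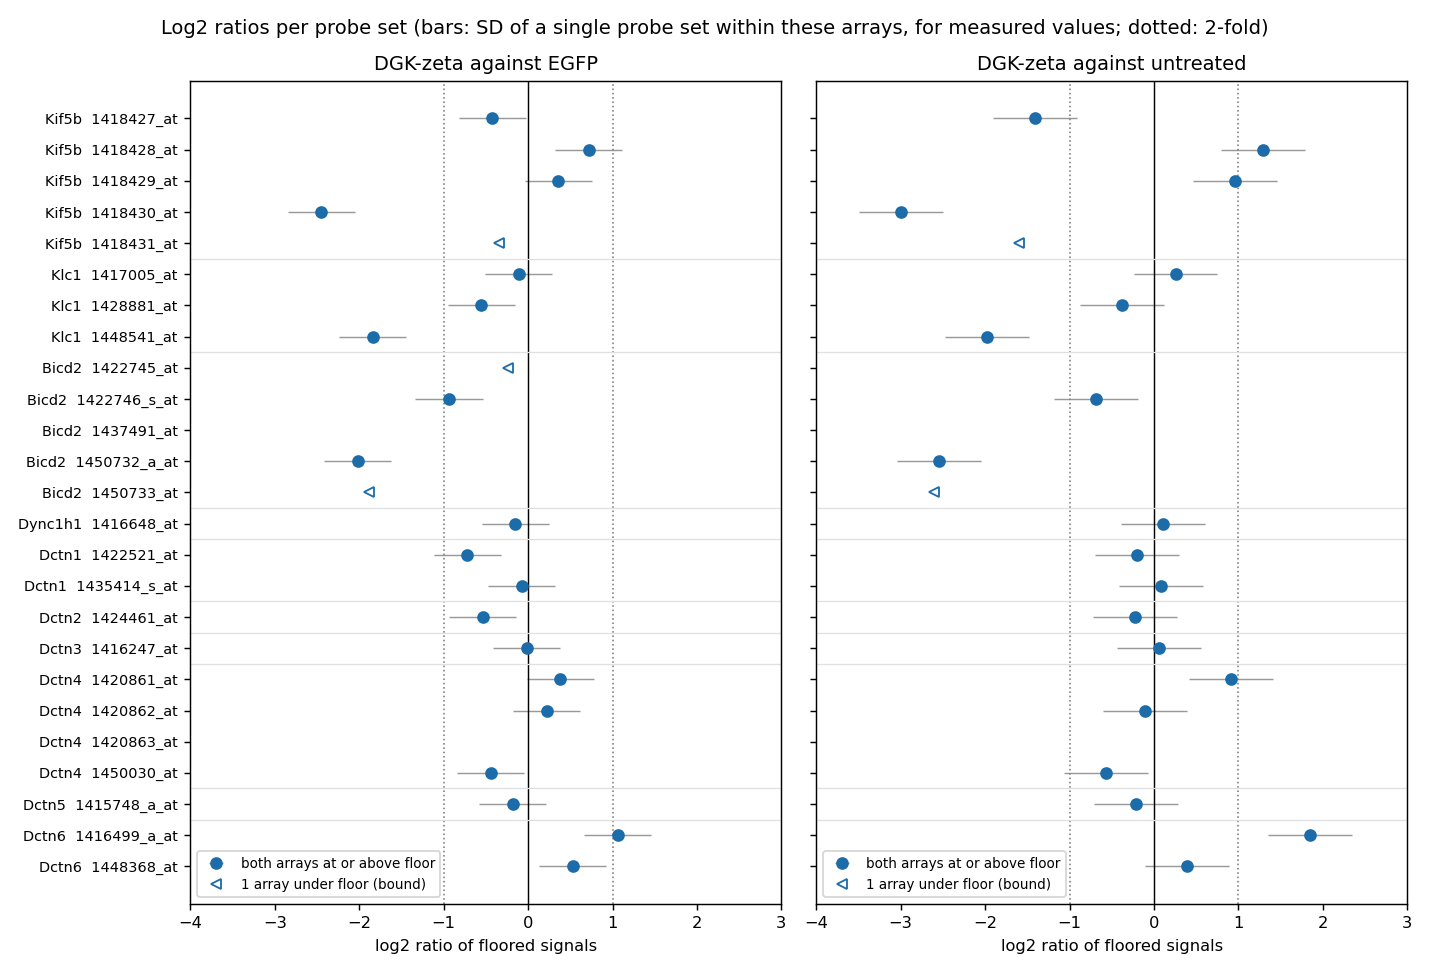
Log2 ratio of floored signals (horizontal axis) of each member probe set for DGKzeta against EGFP (left) and against untreated (right), with bars of 1 SD of a single probe set within these arrays (0.40 and 0.50) and dotted lines at 2-fold. Filled circles are measured on both arrays and open triangles are bounds; the Bicd2 points all lie left of 0, the Kif5b points on both sides, and the Dctn6 points right of it.

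Dynactin is built of a shoulder with a projecting arm, an actin-like filament, and a cap at the filament's pointed end. Dctn1 encodes the large arm subunit, Glued, which binds dynein and microtubules. Its set 1435414_s_at read 1146 in untreated, 1281 in EGFP and 1215 in DGKzeta cells, a log2 ratio of -0.08 against EGFP that turned positive with array medians equalised over the named sets. The other set, 1422521_at, read 389, 558 and 339, a log2 ratio of -0.72 to EGFP and -0.20 to untreated, so EGFP cells were the high ones. Dctn2 encodes dynamitin, the shoulder subunit whose excess takes dynactin apart, and read 1269.7, 1580.45 and 1089. Its log2 ratio to EGFP was -0.54 and that to untreated -0.22, the latter turning to 0.04 with array medians equalised over the named sets. Dctn3, the smallest shoulder subunit, read 1614, 1704 and 1688 and as deposited differed least of all members, with log2 ratios of -0.01 against EGFP and 0.06 against untreated. With that other scaling its ratio to EGFP was 0.35. No set of the arm and shoulder genes was 2-fold apart in any comparison.

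The genes of the pointed-end cap, Dctn4, Dctn5 and Dctn6, which help dynactin bind some adaptors and membranes, gave unlike values. Dctn6 had the higher values in DGKzeta cells. Its set 1416499_a_at read 442 in untreated, 763 in EGFP and 1595 in DGKzeta cells, 2.09-fold above EGFP and 3.61-fold above untreated, and EGFP cells were already 1.72-fold above untreated. Its log2 ratio to EGFP stayed between 1.05 and 1.43 over the scalings and floors tried. Set 1448368_at, tied to the same source record, read 550.0, 499 and 720.1, log2 ratios of 0.53 to EGFP and 0.39 to untreated cells. Both sets were thus highest in DGKzeta cells, but EGFP cells were above untreated ones in the former and below them in the latter. The difference between the 2 sets was 0.53 in the log2 ratio to EGFP, a span reached by 41.1% of the 2251 genes with at least 2 such sets, and 1.46 in that to untreated, reached by 8.75%.

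Dctn5, the close partner of Dctn6 in the cap, had 1 probe set that read 848 in untreated, 835 in EGFP and 734 in DGKzeta cells. Its log2 ratios were -0.18 against EGFP and -0.21 against untreated, and both turned positive with array medians equalised over the named sets. Dctn4 had 4 probe sets. Set 1420861_at read 481, 695 and 905, a log2 ratio of 0.38 to EGFP and 0.91 to untreated. Set 1420862_at read 504, 402 and 469, with EGFP cells the lowest and a log2 ratio of 0.22 against EGFP. Set 1450030_at read 174, 160.3 and 118, log2 ratios of -0.45 to EGFP and -0.56 to untreated cells. The last, 1420863_at, was under the floor everywhere at 32.7, 26.1 and 22.9. As deposited no Dctn4 set was 2-fold apart, but 1420861_at reached log2 ratios of 1.18 and 1.01 to untreated with both ways of equalising array medians. The measured sets again differed in order among the cultures, although all 4 are tied to the same source record.

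Against untreated cells, 6 of 22 member probe sets were at least 2-fold lower in DGKzeta cells, where 5.21% of all named probe sets were, and 2 were higher, where 1.84% were. The lower sets were 3 of Kif5b, 2 of Bicd2 and 1 of Klc1, and the higher ones 1418428_at of Kif5b and 1416499_a_at of Dctn6. Kif5b thus had sets in both directions. Quantile normalization gave 3 higher and 6 lower sets, beside 2.44% and 3.98% of all named probe sets. The counts were 4 and 6 with either way of equalising array medians, beside 4.46% and 3.18% of all when medians were taken over the named sets and 2.52% and 4.40% when taken over sets measured on all 3 arrays. The median log2 ratio of the members was -0.20 against untreated, beside -0.05 over all named probe sets. With array medians equalised over the named sets it was 0.06, beside 0.20 over all named probe sets. In EGFP against untreated cells, as deposited, the median of the members was 0.16, beside 0.01. Of 20 member sets measured on all 3 arrays, 6 had their signals in the order untreated, EGFP, DGKzeta from high to low, where 22.0% of all named probe sets did. Another 4 had the reverse order, where 21.3% did. The former were 2 sets of Kif5b and 1 each of Klc1, Bicd2, Dctn4 and Dctn5, the latter 2 of Kif5b and 1 each of Dctn4 and Dctn6.

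The rest of the machinery was taken as a list of 73 further genes in 6 groups, of which 52 had a named probe set on this array, 108 sets in all. Against EGFP, 71 of these sets were measured: none was at least 2-fold higher (0.497% of all named probe sets were) and 2 were lower (4.28% of all). Against untreated, none of 74 was higher (1.84% of all were) and 3 were lower (5.21% of all). Between EGFP and untreated cells none of 75 was 2-fold apart in either direction, where 0.447% of all were higher and 0.785% lower. The other chains and adaptors of kinesin-1 had 8 sets of 7 genes with a ratio to EGFP. In 4 of them the DGKzeta signal was under the floor, so these are bounds that could only lie below 0. The 4 sets measured on both arrays had log2 ratios from -0.84 to -0.17 to EGFP. The EGFP culture was itself mostly above untreated for this group: of 7 sets measured on both arrays 5 were above 0 and 2 below, with a median of 0.29. For DGKzeta against untreated the median was -0.22 over 4 such sets, with 1 above 0 and 3 below. Over all sets with a ratio the medians were 0.32, with 6 of 8 above 0, and -0.13 over 7. These include 1 bound that could only lie above 0 for EGFP and 3 that could only lie below 0 for DGKzeta. With array medians equalised over the named sets the median of DGKzeta against EGFP moved from -0.41 to -0.10. That of all named probe sets moved from -0.05 to 0.30. Kif5a, Kif5c and Klc3, the other kinesin-1 chains on the array apart from Klc4, stayed under the floor everywhere.

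Other dynein chains had a median of 0.03 over 11 sets against EGFP, with 1 set at least 2-fold lower. That was 1418258_s_at of Dynll2, a light chain shared with other complexes, which read 2094 in untreated, 1470.3 in EGFP and 598 in DGKzeta cells, a log2 ratio of -1.30 against EGFP, or -0.93 and so under 2-fold with array medians equalised over the named sets. Against untreated the log2 ratio was -1.81, or -1.54 with that scaling. The other Dynll2 set, 1418371_at, read 1990, 2199.8 and 2194, log2 ratios of -0.0038 to EGFP and 0.14 to untreated. Other dynactin subunits, the actin-related and capping proteins, had a median of 0.05 over 8 sets and dynein regulators and adaptors -0.09 over 17, with no set 2-fold apart. Tubulins, the subunits of the track itself, had a median of -0.18 over 11 sets. With array medians equalised over the named sets the medians of these 4 groups were 0.39, 0.41, 0.28 and 0.18, beside 0.30 over all named probe sets. Other plus-end motors had a median of -0.17 over 16 sets, or 0.19 with that scaling. Among them Kifap3, the cargo subunit of kinesin-2, read 267, 238 and 52.8 with 1417181_a_at, at least 2.22-fold below EGFP. Its DGKzeta signal was under the floor as deposited and with that scaling. The log2 ratio to EGFP was thus a bound, -1.15 as deposited and -0.997 with that scaling. The latter bound falls short of the 2-fold rule, which does not show a difference under 2-fold. Against untreated this Kifap3 set was at least 2.49-fold lower, with bounds of -1.32 as deposited and -1.26 with that scaling. The other Kifap3 set, 1451783_a_at, read 890.4, 952 and 1188, log2 ratios of 0.32 to EGFP and 0.42 to untreated. Kif1b was 2.11-fold below untreated with 1425270_at, but under 2-fold with each of the 3 other scalings (log2 ratios of -0.99 to -0.82), and within 1.43-fold of it with its other sets measured on all 3 arrays. With array medians equalised over the named sets, Kif16b was 2-fold apart from EGFP with 1429063_s_at (1.14, in place of 0.78) and Kif3a from untreated with 1449841_at (1.08, in place of 0.82).

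**Figure D4:**
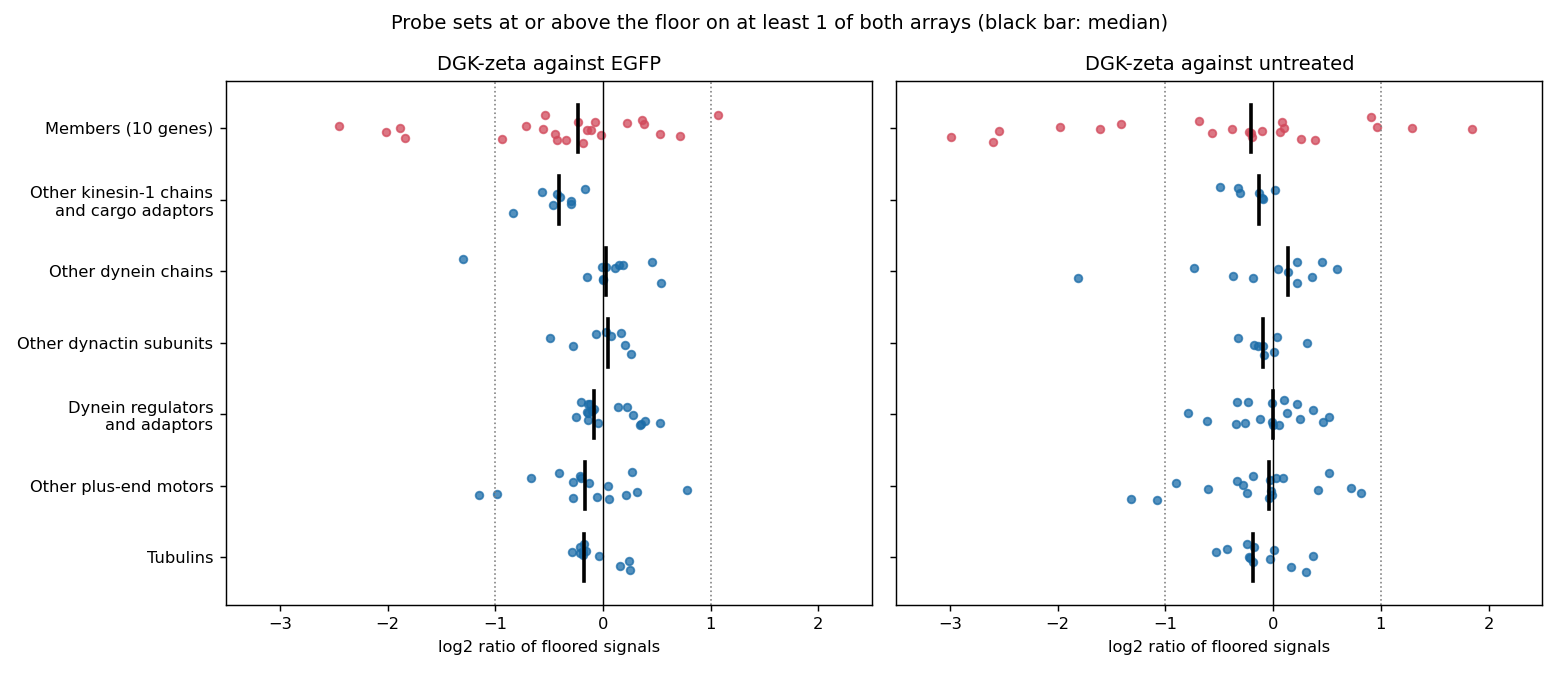
Log2 ratio of floored signals (horizontal axis) of the members and of 6 further groups of transport genes (vertical axis), for DGKzeta against EGFP (left) and untreated (right), 1 point per probe set measured on at least 1 of both arrays and a black bar at the median. Members reach from -2.45 to 1.06 against EGFP, and the 2 further sets beyond the dotted 2-fold lines are those of Dynll2 at -1.30 and Kifap3 at -1.15, the latter a bound.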

How the data were processed

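Total RNA of 3 cultures received biotin labels by the one-cycle Affymetrix procedure, per the labels' protocols, and each went to 1 array. The authors deposited a linear intensity for each probe set, computed by MAS5, per the submitters' processing notes; its version, target value and detection calls are not stated there. From the values, each array has a mean of about 499.95 between its 2nd and 98th percentile, and no further scaling was applied. Gene symbols came from the platform annotation; 20351 of 20380 named probe sets were found by gene ID in a RefSeq table of GRCm38.p6, and 0 symbols differed. Of the other probe sets, 64 are controls, 691 have several symbols and 1555 none. Positions of probes along transcripts were not used here.

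Values under 107 (the 50th percentile of all values) were set to it before log2. A probe set counted as higher or lower from a 2-fold ratio; no test across arrays is possible, and the number of arrays limits the precision. The members and lists were chosen with earlier results of these data known. All member probe sets are named, and list genes where 2-fold apart. The counting was run on simulated data with large changes planted in sets far above the floor and with little noise. This checks the code only and does not bear on sets near the floor or near 2-fold. Alternatives were 3 scalings, a lower floor (25th percentile), a higher one (75th), none, a pseudocount, 1.5-fold and 3-fold rules, and subsets of probe sets. Python 3.11.15, numpy 2.4.6, pandas 2.3.3 and matplotlib 3.10.9 were used.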

Additional observations from a re-analysis of the deposited data

How the results depend on the processing

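Of 68 member log2 ratios, the 14 at or beyond 2-fold kept their sign under all 7 scalings, floors and the pseudocount wherever they could be formed; with the floor at the 75th percentile (562) 43 of 68 could. A floor or pseudocount cannot reverse a sign, and each scaling moved every ratio by less than the SD of a single probe set. Signs at 2-fold could thus hardly change, and their holding is no check of the ratios. Over these settings 422 of 451 values moved by less than the SD of a single probe set and 29 by more, all 29 under another floor or the pseudocount. Some ratios under 2-fold did change sign with the scaling, in sets of Dctn1, Dctn2, Dctn3, Dctn4, Dctn5, Dync1h1 and Klc1. Counts of member probe sets moved as follows. Shares over all named probe sets at the other floors, fold rules and subsets are not given here. At those settings a change in the members cannot be told from a change over all probe sets. Higher than EGFP in DGKzeta cells was 1 set, against 2 with array medians equalised over the named sets or at 1.5-fold and 0 at 3-fold. Lower than EGFP were 4, against 7 with the floor at the 25th percentile, 6 with no floor, the pseudocount or at 1.5-fold, 1 with that at the 75th and 2 with 1 probe set per gene. Higher than untreated were 2, against 4 with either way of equalising array medians or at 1.5-fold, and 1 at 3-fold, with the floor at the 75th percentile or with 1 probe set per gene. Lower than untreated were 6, against 7 with the floor at the 25th percentile or at 1.5-fold, 5 at 3-fold, 3 with the floor at the 75th percentile and 2 with 1 probe set per gene. Between EGFP and untreated cells 0 sets were higher, against 2 at 1.5-fold, and 1 was lower, against 2 after quantile normalization or with array medians equalised over the named sets, 3 at 1.5-fold, and 0 at 3-fold, with the floor at the 75th percentile or with 1 probe set per gene. A higher floor leaves fewer sets to count and turns some of the remaining ratios into smaller bounds. Using 1 probe set per gene also leaves fewer sets. For the scalings the cause was not tested. No paired analysis was possible because each group has 1 array. Signals close to the floor limit Bicd2, Kif5b 1418431_at and Klc1 1448541_at in DGKzeta cells.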
